A study of Mus musculus with 34 samples.

Results

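RNA levels of 10 marker genes of the 2-cell embryo were followed in mouse embryonic stem (ES) cells that lack one or all of the MTA proteins, subunits of the nucleosome remodelling and deacetylation complex NuRD. The genes were given by name as a list (Zscan4a, Zscan4b, Zscan4c, Zscan4d, Zscan4e, Zscan4f, Zfp352, Tcstv1, Tcstv3 and Tdpoz4) and found by matching Ensembl identifiers to mouse symbols. All 10 were among the 48709 genes listed for the Control and Mta123KO libraries, and 9 of them, all but Zscan4a, were among the 22018 genes listed for the single-mutant libraries.

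Shortly after fertilisation the mouse embryo switches on its own genome at the 2-cell stage, and with it a set of genes that is silenced again as development proceeds. Cultures of mouse ES cells hold a rare, reversible population that again expresses this set, the 2-cell-like cells. Zscan4 genes, which encode DNA-binding proteins with a SCAN domain and zinc fingers, mark these cells and are known for a role in telomere maintenance. Dux (Duxf3 in the annotation), a double-homeodomain transcription factor, activates many genes of the set, Dppa2 and Dppa4 act upstream of Dux, and many chromatin factors keep the set silent.

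All cells were of strain 129/Ola. Apart from the withdrawal described below they were grown on gelatin in 2i/LIF, in which a pair of kinase inhibitors and the cytokine LIF hold ES cells undifferentiated. Mta1_del/del and Mta3_del/del cells had lost floxed exons through Cre and were set against the Mta1_flox/flox and Mta3_flox/flox cells they came from, and Mta2_KO cells, which the study's line list gives as a single line, were compared with Mta2_WT cells (3 libraries for each of these 6 groups, 18 in all). Mta123KO cells lack Mta1, Mta2 and Mta3. By the study's methods they were made by targeting Mta2 in cells with deleted Mta1 and floxed Mta3 alleles, then transfecting Cre. Their Control cells carry a mutant Mta1 allele and floxed Mta3 alleles, with Mta2 intact. Each of these genotypes has 4 libraries whose label gives 2iL and 4 whose label gives 48 h of withdrawal of the inhibitors and LIF, 16 in all, and the replicate number of each library names line 1 or 2 and library 1 or 2 of that line. Libraries of a line are not independent, and p-values from these libraries may be too small.

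Total counts ran from 13105820 to 40613585 in the single-mutant libraries and from 37855790 to 57602285 in the others. Levels are given as CPM, the count scaled to library size, after TMM normalization, and were not compared between the 18 and the 16 libraries, which differ in the genes listed and in read layout. Mta2 fell in Mta2_KO (log2 fold change -4.50, adjusted p = 1.11e-09), Mta3 in Mta3_del/del (-2.63, adjusted p = 5.53e-04), and both Mta2 and Mta3 in Mta123KO under each label. Mta1 in Mta123KO was lower without being called, at -0.76 (adjusted p = 0.0061) labelled 2iL and -0.67 (adjusted p = 0.0063) labelled 48 h, against Control cells that carry 1 mutant Mta1 allele. Mta1 stood at 39.2 to 48.0 CPM in Mta1_del/del and 69.4 to 103 CPM in its parent, without overlap but short of the test. The culture labels went against the marker genes. In Control cells 7 of 8 ES cell markers, among them Nanog (3.80), Esrrb (3.44) and Klf4 (4.89 on the log2 scale), were higher in the libraries labelled 48 h, Sox1, an early neural factor, was lower (-4.79), and the names of the deposited files also give the opposite culture. Groups are named here as labelled. Exchanging the labels would exchange the comparisons of Mta123KO with Control and reverse the direction of every culture comparison.

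The positions given are those of GRCm38 in the GENCODE annotation. The Zscan4 genes are on chromosome 7 in a cluster of 9 gene models that spans 820 kb (chr7:10794242-11614112), 3 of which, Zscan4-ps1, Zscan4-ps2 and Zscan4-ps3, are not members. Zscan4a is annotated as an unprocessed pseudogene and the other 9 members as protein-coding genes. Zfp352, which encodes a zinc finger protein, is at chr4:90218820-90225702, Tcstv1 at chr13:119893388-119894785, Tcstv3 at chr13:120316878-120318178, and Tdpoz4, of a family of TRAF- and BTB/POZ-domain proteins, at chr3:93796398-93797510. Close copies limited how far single genes could be told apart. Of the 50-base stretches in their transcripts, 9.88% were unique to Zscan4b, 11% to Zscan4e, 13.2% to Zscan4f, 14.5% to Zscan4c, 36.4% to Zscan4a and 50.4% to Zscan4d, and all shared ones were shared with other Zscan4 models. The unique share was 92.9% for Zfp352, 85% for Tcstv1, 68.6% for Tcstv3 and 58.8% for Tdpoz4. How reads that align to several places were counted is not given in the sources used here, so the counts of single Zscan4 genes are uncertain, and their sum was used beside them. The sum leaves out Zscan4-ps1, Zscan4-ps2 and Zscan4-ps3, annotated as protein-coding. They share 48.4%, 87.6% and 72.5% of their stretches with other Zscan4 models, so the sum too depends on how shared reads were counted. With these models added, the mean rose from 1190 to 1974 CPM in Mta2_WT and from 58.2 to 96.8 CPM in Mta2_KO.

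The copies also share their start regions, shown here because they let a reader see how alike the genes counted side by side are. RefSeq (GRCm38.p6) gave a 300-base start region for 6 of the 10 members, 4 of them Zscan4 genes. Over the 266 bases that those 4 have in common, each written 5′ to 3′ with the 13 positions at which they differ in capitals, the sequences were the following.
Zscan4b: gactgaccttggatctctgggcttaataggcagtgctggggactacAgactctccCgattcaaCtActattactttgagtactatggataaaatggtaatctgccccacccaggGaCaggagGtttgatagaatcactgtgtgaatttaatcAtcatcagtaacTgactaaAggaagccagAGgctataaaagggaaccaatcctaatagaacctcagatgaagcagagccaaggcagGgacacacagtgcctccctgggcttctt
Zscan4c: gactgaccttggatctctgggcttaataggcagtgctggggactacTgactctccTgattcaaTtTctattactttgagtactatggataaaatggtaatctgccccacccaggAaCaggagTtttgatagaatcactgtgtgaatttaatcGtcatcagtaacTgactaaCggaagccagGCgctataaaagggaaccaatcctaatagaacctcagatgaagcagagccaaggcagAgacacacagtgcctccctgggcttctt
Zscan4d: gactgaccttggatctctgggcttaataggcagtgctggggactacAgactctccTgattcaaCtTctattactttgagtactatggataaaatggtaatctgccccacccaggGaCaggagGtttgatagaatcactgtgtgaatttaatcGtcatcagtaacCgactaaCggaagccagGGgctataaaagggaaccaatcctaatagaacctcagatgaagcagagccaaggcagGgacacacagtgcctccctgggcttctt
Zscan4f: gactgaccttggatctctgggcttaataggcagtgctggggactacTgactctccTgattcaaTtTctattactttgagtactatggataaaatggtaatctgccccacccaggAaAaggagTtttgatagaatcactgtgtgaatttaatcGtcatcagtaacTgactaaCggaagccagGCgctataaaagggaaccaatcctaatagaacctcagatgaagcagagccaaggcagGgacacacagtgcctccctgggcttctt
The Zscan4b window was chr7:10905001-10905266 on the minus strand, with 216 bases before and 50 bases from the annotated start. The Zscan4c window was chr7:11005506-11005771 on the plus strand, with 239 bases before and 27 bases from the annotated start. The Zscan4d window was chr7:11166133-11166398 on the minus strand, with 250 bases before and 16 bases from the annotated start. The Zscan4f window was chr7:11397699-11397964 on the plus strand, with 216 bases before and 50 bases from the annotated start. Pairs of these sequences were 95.9% to 99.2% identical, the closest being Zscan4c and Zscan4f with 2 differences. All 4 hold TATAAAA in their shared part, beginning 31 bases before the annotated start of Zscan4b and Zscan4f, 54 before that of Zscan4c and 65 before that of Zscan4d. On either strand this motif occurred in 5.48% of 32851 start regions, and not in those of Zfp352 and Tdpoz4.

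Each Zscan4 gene held a share of the sum that varied between libraries. In the 16 single-mutant libraries with at least 100 summed Zscan4 counts, Zscan4f made up 25% to 31.6% of the sum, Zscan4c 22.7% to 29.5%, Zscan4d 15.4% to 22.7%, Zscan4b 11.1% to 19.1% and Zscan4e 9.09% to 16.5%. The level per kb of exon was also highest for Zscan4f, at 163 ± 0.909 CPM per kb (SD, n = 3) in Mta2_WT and 15.6 ± 8.15 (SD, n = 4) in Control labelled 2iL. On that scale Tcstv1 (20.1 ± 0.836, n = 3), Tcstv3 (18.9 ± 0.314), Zfp352 (13.5 ± 0.158) and Tdpoz4 (1.91 ± 0.355) were far below every Zscan4 gene in Mta2_WT, and Tcstv1 and Tcstv3 differed from each other by little more than their SDs.

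The question of the single mutants is whether loss of one MTA protein changes gene expression on its own. The summed Zscan4 level (Zscan4b to Zscan4f) was lower in the mutant library of all 9 same-numbered pairs. Of these comparisons, same-numbered libraries clearly deviated together from their group means only for Mta1 (mean correlation 0.582, against 0.119 for Mta2 and 0.137 for Mta3). The Mta2 and Mta3 groups did not overlap, so that any pairing of their libraries gives a lower mutant. In Mta2_WT it was 1190, 1185 and 1196 CPM, and in Mta2_KO 59.6, 60.5 and 54.5 CPM. The groups were far apart and their replicates nearly equal. The difference was a log2 fold change of -4.35 (SE 0.06, adjusted p = 1.69e-10, edgeR quasi-likelihood test with Benjamini-Hochberg adjustment over all genes, as below). By the study's line list the Mta2_KO libraries come from a single line. The p-values of this comparison measure the spread between libraries and do not separate loss of Mta2 from a difference between lines. Since these are bulk libraries, fewer 2-cell-like cells and less RNA per such cell cannot be told apart.

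A gene was called where the adjusted p was below 0.05 and the log2 fold change exceeded 1 in size. In Mta2_KO all 9 listed members were tested and called as decreased, where 6.04% of the 15602 genes tested were, and their median log2 fold change was -4.35 against 0.00 for all genes. Zfp352 was at 30.5, 31.1 and 30.6 CPM in Mta2_WT and 1.69, 1.54 and 0.978 CPM in Mta2_KO (log2 fold change -4.42, SE 0.14, adjusted p = 1.99e-08). Tcstv1 was at 29.3, 28.2 and 26.9 CPM against 1.90, 2.04 and 1.89 CPM (-3.84, SE 0.08, adjusted p = 2.32e-09). Each of these genes fell to a narrow range in every mutant library. Tcstv3 was at 14.9, 14.8 and 14.5 CPM against 1.21, 1.34 and 0.619 CPM (-3.77, SE 0.19, adjusted p = 3.96e-07). Tdpoz4 had 69, 70 and 83 counts in Mta2_WT and 0, 1 and 2 counts in Mta2_KO (-6.02, SE 0.49, adjusted p = 1.02e-05, a fitted value near 0 counts). Other genes of chromosome 3, where Tdpoz4 lies, had a median log2 fold change of -0.50 in this comparison, against 0.03 on chromosome 4, 0.06 on chromosome 7 and -0.04 on chromosome 13. Neural markers (a list of 5) summed to 271 to 291 CPM in Mta2_KO and 79 to 88.8 CPM in Mta2_WT. They did not move together, as Tubb3 (1.91), Pax6 (1.53) and Nes (1.36) rose and Sox1 fell (-1.65 on the log2 scale). The part of these markers in the result was not tested.

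**Figure D1:**
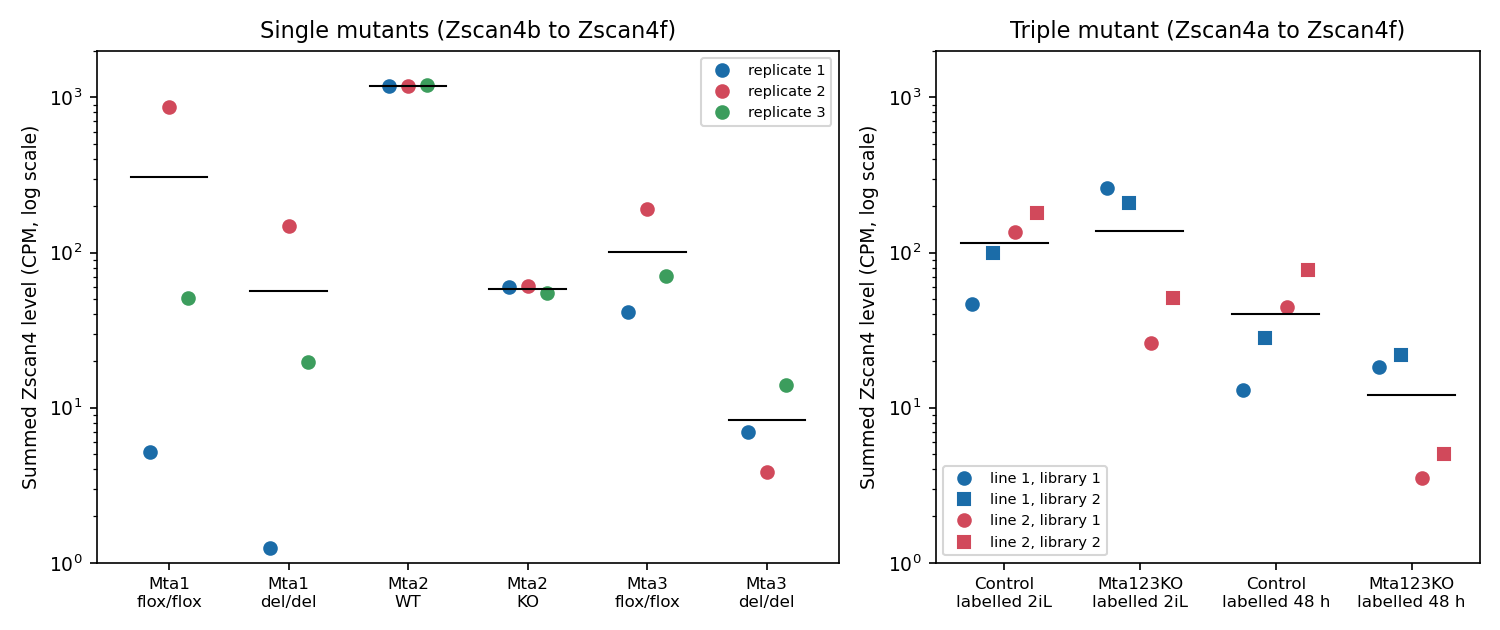
Summed Zscan4 level in each library (CPM, log scale), left for the 6 single-mutant groups, coloured by replicate number, and right for Control and Mta123KO, coloured by line; bars are group means. Mta2_WT libraries sit at 1185 to 1196 CPM and Mta2_KO libraries at 54.5 to 60.5 CPM, while the other groups spread widely between replicates.

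In Mta3_del/del the same genes were lower against a wider spread. The summed Zscan4 level was 41.1, 192 and 71.1 CPM in Mta3_flox/flox and 6.99, 3.87 and 14 CPM in Mta3_del/del. Every mutant library was below every parental one. The log2 fold change was -3.68 (SE 0.64, adjusted p = 0.0184). All 6 members tested (Zscan4b to Zscan4f and Tcstv1) were called as decreased, from -3.53 to -3.90 on the log2 scale, where 5.25% of 15522 genes were. Tcstv1 was at 0.896, 7.44 and 2.83 CPM in the parent and 0.184, 0.237 and 0.604 CPM in the mutant (-3.53, SE 0.79, adjusted p = 0.0254). Tcstv3 (4, 111 and 31 counts in the parent and 2, 2 and 3 in the mutant), Zfp352 (5, 82 and 29 against 5, 5 and 4) and Tdpoz4 (0, 16 and 1 against 0, 2 and 0) did not pass the filter on low counts. In CPM, Tcstv3 and Zfp352 were lower in every mutant library than in any parental one, while Tdpoz4 overlapped. Leaving out replicate 1 or replicate 3 of both groups, or replicate 1 of Mta3_del/del alone, took the adjusted p of the sum to 0.09, 0.111 and 0.0846 and left no member called, and without replicate 2 the log2 fold change was -2.47 (adjusted p = 0.00942). Fibroblast markers (a list of 7) summed to 12.3 to 59.8 CPM in Mta3_flox/flox and 5.67 to 6.79 CPM in Mta3_del/del, and their part in the result was not tested.

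In the Mta1 comparison no member was called, and the parental lines themselves were far apart. The summed Zscan4 level was 5.16, 867 and 51.1 CPM in Mta1_flox/flox and 1.25, 148 and 19.6 CPM in Mta1_del/del, so the groups overlapped. Within replicate numbers the parent was 4.14, 5.84 and 2.61 times the mutant. The log2 fold change was -2.47 (SE 1.94, adjusted p = 1). Of 7 members tested, 0 were called by edgeR and 0 had an unadjusted p under 0.05, and DESeq2 called 0 too. Across all genes 0% were called and 50 had an unadjusted p under 0.05. With the replicate number as a block, since same-numbered libraries deviated together in all 3 pairs, 0 members and 0 genes were called by edgeR, while 7 of 7 members, with log2 fold changes of -1.90 to -2.36, and 468 of 14561 genes (3.21%) had an unadjusted p under 0.05. Tcstv1 had 2, 162 and 24 counts in the parent and 0, 30 and 11 in the mutant, and Zfp352 had 6, 97 and 5 against 0, 17 and 6. In both, replicate 2 of each genotype held most counts. Without replicate 2 of both genotypes the unblocked difference was -1.43 (adjusted p = 1), and without that of Mta1_flox/flox alone, which breaks the pair, it turned to 1.01 (adjusted p = 1).

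Compared with the other parents, Mta2_WT had the highest level of the 9 parental libraries, which ran from 5.16 to 1196 CPM. The 3 Mta2_KO libraries lay within the range of the Mta1_flox/flox and Mta3_flox/flox libraries, 5.16 to 867 CPM. A fit of all 18 libraries with 1 estimate of spread left the summed Zscan4 differences at -4.34 for Mta2_KO (adjusted p = 0.0516) and -3.60 for Mta3_del/del (adjusted p = 0.088), both then short of the threshold, while the same 9 members were called in Mta2_KO and 0 in Mta3_del/del.

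**Figure D2:**
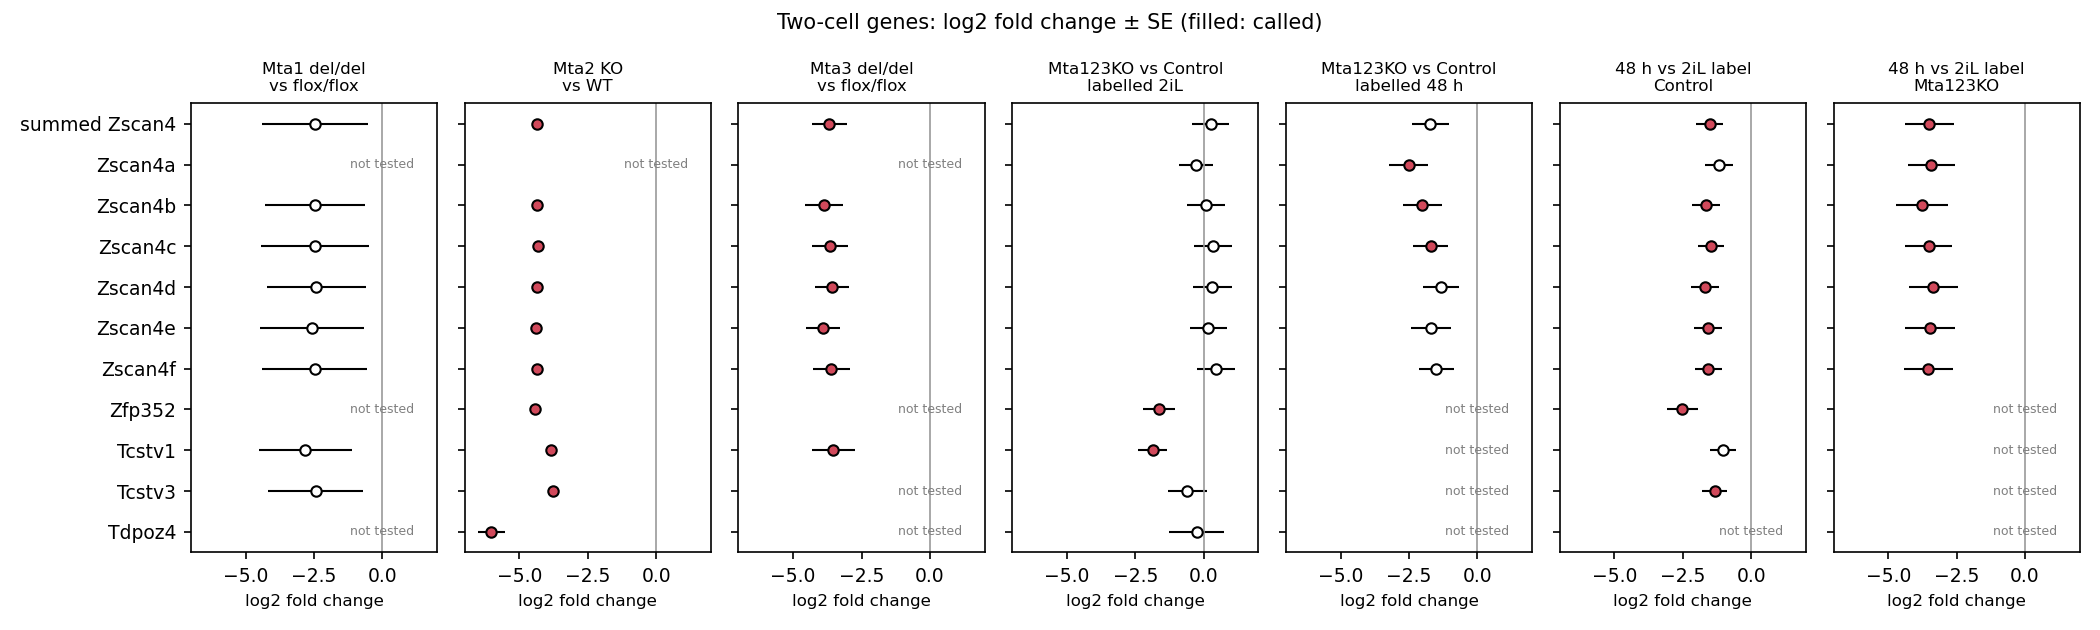
Log2 fold change (x axis, with SE as bars) of summed Zscan4 and each member (y axis) in 7 comparisons; filled points were called. All tested members lie between -3.53 and -6.02 in Mta2_KO and Mta3_del/del, whereas Zfp352 and Tcstv1 are the only members called in Mta123KO labelled 2iL.

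The triple mutant addresses what happens to these genes when NuRD cannot form. In libraries labelled 2iL the summed Zscan4 level (Zscan4a to Zscan4f) differed more between lines than between genotypes. It was 46.8 and 99.2 CPM in Control line 1, 135 and 179 CPM in Control line 2, 260 and 209 CPM in Mta123KO line 1, and 26.2 and 50.7 CPM in Mta123KO line 2. Both Mta123KO line 1 libraries were above every Control library, and line 2 was around or below the lowest Control library. Line 1 had 6.11 times the mean level of line 2 in Mta123KO, and line 2 had 2.15 times that of line 1 in Control. The genotype difference was 0.25 on the log2 scale (SE 0.68, adjusted p = 0.782). Set alone against the 4 Control libraries, Mta123KO line 1 gave 1.03 (adjusted p = 0.0415) and line 2 gave -1.59 (adjusted p = 0.0172). The lines were fitted apart after their values were seen, and libraries of a line are not independent. The p-values of these fits therefore add nothing to the ranges.

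Between the lines of Mta123KO, line 1 had 9.91 times the mean level of line 2 for Tdpoz4, 7.76 times for Tcstv3, 3.46 times for Zfp352 and 1.37 times for Tcstv1, the last with overlapping libraries. Of the 10 members tested in libraries labelled 2iL, 2 were called as decreased and 0 as increased, where 7.43% of 21651 genes were called as decreased. Zfp352 was at 0.518, 0.903, 1.52 and 2.47 CPM in Control and 0.594, 0.747, 0.171 and 0.217 CPM in Mta123KO (log2 fold change -1.63, SE 0.58, adjusted p = 0.0414). Tcstv1 was at 0.239, 0.534, 0.655 and 1.24 CPM in Control and 0.149, 0.272, 0.220 and 0.0867 CPM in Mta123KO (-1.86, SE 0.53, adjusted p = 0.0163). In both genes the groups overlapped at their edges. Leaving out either library number of line 2 (numbers 2_1 and 2_2) left neither gene called. Tcstv3 was at 0.339, 0.780, 1.13 and 1.48 CPM in Control and 1.38, 0.770, 0.147 and 0.130 CPM in Mta123KO (-0.60, SE 0.72, adjusted p = 0.514). Tdpoz4 had 1, 1, 17 and 24 counts in Control and 21, 10, 1 and 2 in Mta123KO (-0.26, SE 1.02, adjusted p = 0.85), high in Control line 2 and in Mta123KO line 1.

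Counts per 1000 summed Zscan4 counts of the same library set the other genes beside Zscan4 whatever the total level. These ratios were chosen after the values were seen. Zfp352 gave 9.1 to 13.8 in Control labelled 2iL and 2.28 to 6.54 in Mta123KO, and Tcstv3 gave 7.23 to 8.34 and 2.56 to 5.6. Neither overlapped between genotypes, with mean differences of -1.52 and -0.95 on the log2 scale. The exact two-sided permutation test (n = 4 and 4) gave p = 0.0286 each, the smallest this design allows, and 0.0714 each adjusted over 5 ratios. Since libraries of a line are not independent, these p-values add nothing to the ranges. In Mta123KO the ratios rest on 7 to 33 counts of Zfp352 and 6 to 65 of Tcstv3. Tcstv1 (4.85 to 6.88 and 0.57 to 8.4, exact permutation p = 0.143), Tdpoz4 (0.207 to 2.95 and 0.854 to 1.71, p = 0.771) and Dux (9.25 to 12.3 and 2.69 to 20.5, p = 0.371) overlapped. Both libraries of Mta123KO line 1 were below every Control library in the Tcstv1 and Dux ratios, as was library 2_2 in that of Tcstv1. In libraries labelled 48 h, where Mta123KO had 0 to 7 counts of these genes, the Zfp352 ratio overlapped (3.77 to 8.21 in Control and 8.78, 5.05, 12.7 and 0 in Mta123KO), and the Tcstv3 ratio was 6.43 to 14.1 in Control and 0 to 6.37 in Mta123KO.

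**Figure D3:**
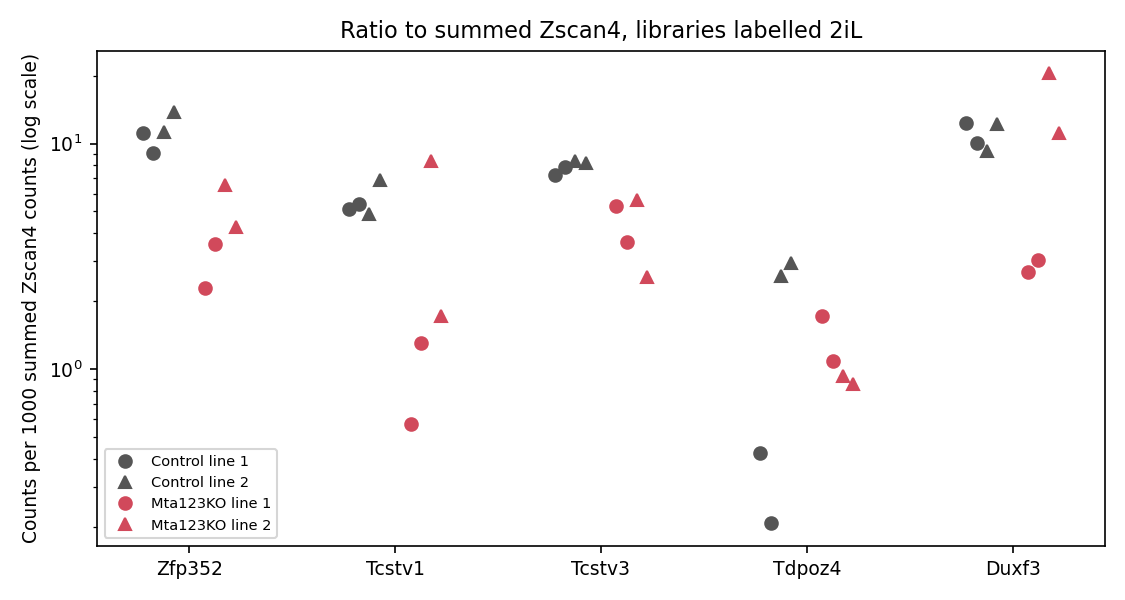
Counts per 1000 summed Zscan4 counts (y axis, log scale) for 4 members and Duxf3 in each library labelled 2iL, grey for Control and red for Mta123KO, with circles for line 1 and triangles for line 2. Zfp352 spans 9.1 to 13.8 in Control and 2.28 to 6.54 in Mta123KO, and Tcstv3 also separates.

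Among the Zscan4 genes themselves, Zscan4a took a smaller share of the sum in Mta123KO. The share was 11.7% to 13.5% in Control and 7.76% to 10% in Mta123KO labelled 2iL, and 13.7% to 16.6% and 7.4% to 10.5% labelled 48 h. The groups did not overlap under either label, and the means differed by -3.72 and -6.2 percentage points. An exact two-sided permutation test (n = 4 and 4) gave p = 0.0286 each, the smallest this design allows, and 0.0286 adjusted over both labels. Any 2 groups of this size that do not overlap give this p. Zscan4a was picked among the Zscan4 genes after the values were seen, which the adjustment does not cover, and libraries of a line are not independent. The p-values therefore add nothing to the ranges. Zscan4f took a larger share without overlap, 24.7% to 27.9% in Control and 28.5% to 32.2% in Mta123KO labelled 2iL, a difference that was not tested. Since both genes share most of their sequence with the other copies, these shares depend on how shared reads were counted.

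In libraries labelled 48 h all members tested were lower in Mta123KO, some past the threshold. The summed Zscan4 level was 13, 27.9, 44.2 and 76.6 CPM in Control and 18.4, 21.7, 3.49 and 5 CPM in Mta123KO. Line 2 of Mta123KO was below every Control library, and line 1 lay between the libraries of Control line 1. The log2 fold change was -1.72 (SE 0.67, adjusted p = 0.0575). Of 6 members tested, Zscan4a (-2.52, SE 0.71, adjusted p = 0.0152), Zscan4b (-2.02, SE 0.72, adjusted p = 0.0423) and Zscan4c (-1.71, SE 0.64, adjusted p = 0.0486) were called as decreased, where 5.93% of 21079 genes were. Zscan4d, Zscan4e and Zscan4f gave -1.34, -1.70 and -1.50 (adjusted p = 0.111, 0.0764 and 0.0817). Tcstv1 had 9, 18, 14 and 15 counts in Control and 0, 3, 0 and 0 in Mta123KO, Tcstv3 had 9, 15, 19 and 21 against 1, 3, 1 and 0, and Zfp352 had 6, 4, 13 and 18 against 7, 5, 2 and 0. Tcstv1 and Tcstv3 did not overlap between the genotypes, but they did not pass the filter on low counts.

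The call on the sum turned with the settings. Scaling on spike-in counts, which moved the median of all genes from 0.01 to -0.18, gave -1.84 (adjusted p = 0.00103). Without the filter on low counts it was -1.74 (adjusted p = 0.0379) and without number 1_1 it was -2.28 (adjusted p = 0.0388). Mta123KO line 2 alone gave -3.23 (adjusted p = 0.00364) and line 1 alone -0.99 (adjusted p = 0.157). These single-line fits were also chosen after the values were seen, and their p-values rest on libraries that are not independent. Leaving out number 2_1 or 2_2 left 0 members called, and leaving out 1_1 left 7. Trophoblast markers (a list of 6) summed to 107 to 445 CPM in Mta123KO and 18.8 to 22.6 CPM in Control labelled 2iL, and to 170 to 758 and 82 to 101 CPM labelled 48 h, and their part in these results was not tested.

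Between culture labels every Zscan4 gene was lower in libraries labelled 48 h, in both genotypes and in every line. In Control, same-numbered libraries labelled 2iL had 3.6, 3.55, 3.05 and 2.34 times the summed Zscan4 level of those labelled 48 h. The order of the 4 Control libraries was the same under both labels. The log2 fold change was -1.52 (SE 0.50, adjusted p = 0.0217), and -1.62 (SE 0.09, adjusted p = 2.26e-07) with the replicate number, which names the same line under both labels, as a block. Of 9 members tested, 7 were called as decreased (Zscan4b to Zscan4f, Zfp352 and Tcstv3), where 13.2% of 21240 genes were. Zfp352 gave -2.52 (SE 0.56, adjusted p = 0.00241), Tcstv3 -1.33 (adjusted p = 0.0272), and Zscan4a (-1.18, adjusted p = 0.0628) and Tcstv1 (-1.04, adjusted p = 0.0857) were not called. With the block Zscan4a was called (-1.32, adjusted p = 4.37e-05). Without number 1_2 or 2_1 the sum gave adjusted p = 0.077 and 0.0782 in the unblocked fit.

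In Mta123KO, same-numbered libraries labelled 2iL had 14.2, 9.64, 7.49 and 10.2 times the level of those labelled 48 h. Line 1 stayed above line 2 under both labels, 6.11 and 4.72 times in the means. The log2 fold change was -3.50 (SE 0.89, adjusted p = 0.0239), and -3.36 (SE 0.14, adjusted p = 4.88e-06) with the block. All 6 members tested, Zscan4a to Zscan4f, were called as decreased (-3.35 to -3.76), where 4.62% of 21505 genes were. Zfp352 went from 28, 33, 7 and 10 counts labelled 2iL to 7, 5, 2 and 0 labelled 48 h, Tcstv3 from 65, 34, 6 and 6 to 1, 3, 1 and 0, Tcstv1 from 7, 12, 9 and 4 to 0, 3, 0 and 0, and Tdpoz4 from 21, 10, 1 and 2 to 2, 1, 0 and 0. These 4 did not pass the filter on low counts in this comparison. Leaving out number 1_1, 1_2 or 2_2 gave adjusted p = 0.0918, 0.0752 and 0.0669 for the sum in the unblocked fit and left 0 members called.

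The change with culture label was larger in Mta123KO than in Control by -1.96 on the log2 scale for summed Zscan4. Without the block this difference did not pass (SE 1.04, adjusted p = 0.197), 0 of 10 members were called and 2 had an unadjusted p under 0.05 (DESeq2 called 1, Tcstv3), where 13% of 22973 genes were called. With the replicate number as a block it was -1.72 (SE 0.18, adjusted p = 1.91e-05), and 8 members were called, all but Zfp352 and Tdpoz4. The share of all genes called with the block is not given here, so this count cannot be set against the 13% of the unblocked fit. The smallest of the 4 Mta123KO ratios between labels, 7.49, was above the largest of the 4 Control ratios, 3.6. The 8 ES cell markers summed to 1050 to 1180 CPM in Control labelled 2iL and 4870 to 5520 CPM labelled 48 h, and to 1070 to 1240 and 2670 to 3880 CPM in Mta123KO, rising with the label under which Zscan4 was lower. Their part in the result was not tested.

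**Figure D4:**
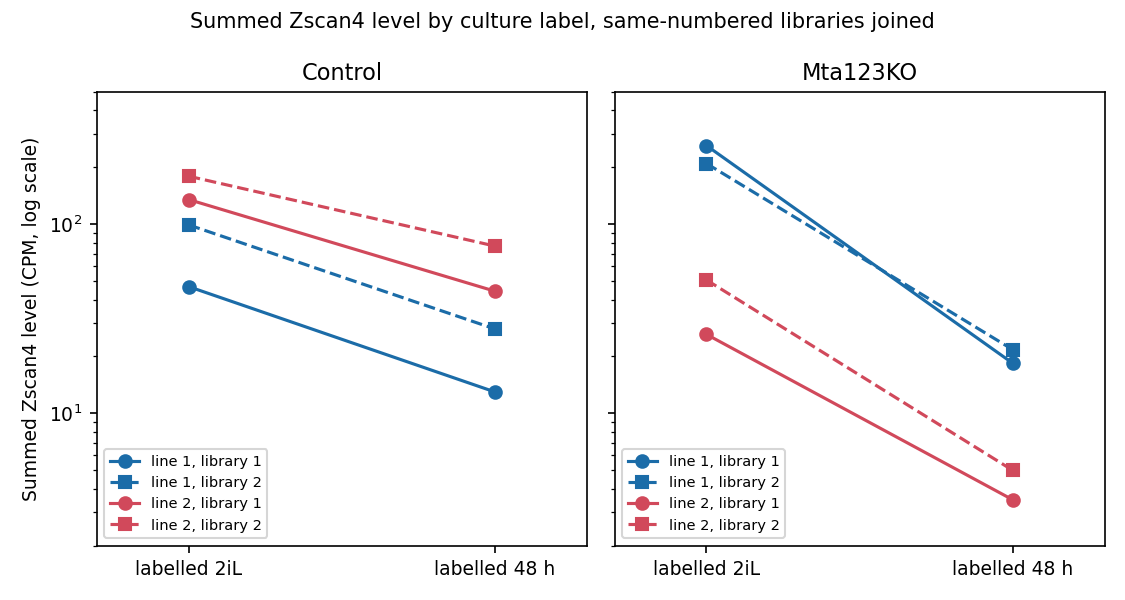
Summed Zscan4 level (y axis, CPM, log scale) in libraries labelled 2iL and 48 h (x axis) for Control and Mta123KO, with lines joining libraries of the same number. All 8 lines fall from left to right, by 2.34 to 3.6 times in Control and 7.49 to 14.2 times in Mta123KO.

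Among the activators, Dux was lower in Mta2_KO, Mta3_del/del and Mta123KO labelled 2iL. It was at 10.2, 11.1 and 11.6 CPM in Mta2_WT and 1.62, 1.28 and 1.27 CPM in Mta2_KO (log2 fold change -2.96, SE 0.13, adjusted p = 1.93e-07). In Mta3_flox/flox it was at 2.83, 7.41 and 2.36 CPM and in Mta3_del/del at 0.258, 1.03 and 0.216 CPM (-3.11, SE 0.68, adjusted p = 0.0245). Both mutants were below all of their controls. In libraries labelled 2iL it was at 0.577, 1.01, 1.25 and 2.18 CPM in Control and 0.700, 0.634, 0.538 and 0.564 CPM in Mta123KO (-1.03, SE 0.37, adjusted p = 0.0432, and 0.114 with the replicate block), so that Mta123KO line 1 had a high Zscan4 level beside a Dux level at the lower end of Control. Labelled 48 h it had 12, 15, 25 and 45 counts in Control and 2, 2, 6 and 1 in Mta123KO.

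Of the 6 activators listed, 0 rose and 3 fell in Mta2_KO, where 11.3% of all genes were called in either direction. In Mta3_del/del 0 rose and 1 fell, where 6.06% of all genes were called. In Mta123KO labelled 2iL 2 rose and 2 fell, where 20.6% of all genes were called. Of 5 tested labelled 48 h 1 rose and 1 fell, where 20% of all genes were called. Counts this small say little beside those shares. Gata2, a GATA-family factor, rose most, by 5.27 on the log2 scale labelled 2iL (SE 0.64, adjusted p = 1.88e-04) and 4.53 labelled 48 h (SE 0.67, adjusted p = 5.53e-04). Dppa2 and Dppa4, which bind chromatin upstream of Dux, were lower in Mta123KO. Dppa4 changed by -1.19 (SE 0.15, adjusted p = 2.50e-04) in Mta123KO labelled 2iL and -0.62 labelled 48 h, and Dppa2 by -0.95 and -1.32 (SE 0.12, adjusted p = 4.14e-05). In Mta2_KO they changed by -0.33 and -0.49, short of the fold threshold. Tbx3, a T-box factor, fell in Mta2_KO (-1.40, SE 0.10) and rose in Mta123KO labelled 2iL (2.33, SE 0.29), and Nelfa fell in Mta2_KO (-1.26, SE 0.04). Of 23 genes listed as repressors of the 2-cell set, 0 were called in either direction in Mta2_KO (median -0.06), where 11.3% of all genes were. In Mta3_del/del 1 was called, where 6.06% of all genes were. It was Lin28a, which encodes an RNA-binding protein (2.57, SE 0.42, adjusted p = 0.0167). In Mta123KO 1 fell labelled 2iL (Chaf1b, a chromatin assembly subunit, -1.09) and 1 labelled 48 h (Uhrf1, a partner of the maintenance DNA methyltransferase, -1.28), where 20.6% and 20% of all genes were called in either direction. Zfp42 (Rex1), also a naive pluripotency marker, was not called in Mta123KO (-0.12 labelled 2iL and -0.60 labelled 48 h, the latter with adjusted p = 0.00182 but short of the fold threshold) and was higher in libraries labelled 48 h (1.54 in Control and 1.04 in Mta123KO).

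A further list of 35 2-cell genes was counted beside the members. It holds Dux, as the list of activators does. This list was chosen with earlier results of these data known, so its counts are not independent support for those of the members. In Mta2_KO 32 of 34 tested fell and 0 rose, where 6.04% of all genes fell (median log2 fold change -3.70 against 0.00 for all genes), among them Gm4340 (-4.36, SE 0.06) and Tdpoz3 (-4.15, SE 0.29). In Mta3_del/del 27 of 30 fell, against 5.25% of all genes (median -3.00), with Pramef6 (-5.14, SE 1.15) and BC080695 (-4.39, SE 0.73), and in Mta1_del/del 0 of 23 were called (median -2.37). In Mta123KO labelled 2iL 7 of 31 fell and 0 rose, against 7.43% of all genes that fell (median -0.57), with B020031M17Rik (-3.50, SE 0.55) and Tmem92 (-1.93, SE 0.56). Labelled 48 h 12 of 20 fell, against 5.93% of all genes, and 1 rose, Gm16513 (1.25, SE 0.45), with Usp17lc, of a deubiquitinase family, at -3.57 (SE 0.86). Between labels 10 of 29 fell in Control, against 13.2% of all genes (median -1.16), and 16 of 22 in Mta123KO, against 4.62% (median -3.06). Many of these genes are close copies of each other and may share reads.

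Genes whose level followed summed Zscan4 most closely between replicates were sought over both sets. Log2 CPM was centred on each group, and Pearson's r with summed Zscan4 was averaged over the 18 and the 16 libraries for 15203 genes. The 8 highest were Zscan4-ps2 (0.994), Zscan4-ps3 (0.992), Zscan4-ps1 (0.992), Gm21304 (0.991), Gm21312 (0.989), Gm20765 (0.986), Gm8764 (0.982) and Gm2016 (0.979). The first 3 share sequence with the members and may share reads with them, and the next 4 are all on chromosome 10. Among genes listed only for Control and Mta123KO, the highest r over 16 libraries were those of Gm16478 (0.985), Gm4782 (0.974), ENSMUSG00000071217 (0.966) and Gm20478 (0.960). The other members ranked lower, Tcstv3 at 46 (mean r 0.909), Zfp352 at 62 (0.879) and Tcstv1 at 234 (0.757), and the mean r was 0.647 for Dux, 0.378 for Dppa2, 0.033 for Dppa4 and -0.249 for Zfp42. These correlations rest on few lines, which libraries share, and on genes of low counts.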

How the data were processed

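RNA-seq counts of 34 libraries of cultured mouse ES cells were used. Per the labels and the study's methods, the authors trimmed reads with Trim Galore, aligned them to GRCm38 with TopHat2 and counted reads per gene with featureCounts, and the deposited values are whole, unnormalized counts per Ensembl gene. How reads with several alignments were treated is not given in the sources used here.

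Symbols were matched for 48349 of 48709 genes of the Control and Mta123KO libraries and 21852 of 22018 of the single-mutant libraries. The 92 spike-in RNAs listed were kept out of library sizes. Zscan4 counts were also summed into a single feature. Each comparison was fitted over all genes on the libraries of its groups with edgeR 4.0.16 in R 4.3.3 (TMM, filterByExpr, quasi-likelihood F test, Benjamini-Hochberg adjustment), after the same code was tested on simulated counts. Genotype by culture was an interaction term. Called genes had an adjusted p below 0.05 and a log2 fold change over 1 in size. DESeq2 1.42.0, other scalings, no filter, a replicate block, a joint fit, summed lines and left-out libraries were alternatives. Ratios and shares were compared by exact permutation tests.

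The members and gene lists were chosen with earlier results of these data known. All members are named. Of each other list, at most the 4 called genes with the largest change per direction and a mean of at least 0.2 CPM could be named, with Dux, Dppa2, Dppa4 and Zfp42 in any case. Log2 CPM for the correlations used a prior count of 2.

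Same-numbered libraries deviated together between culture labels, where a number names the same line (mean correlation of deviations 0.311 in Control and 0.577 in Mta123KO), and in the Mta1 comparison (0.434 to 0.702 over 3 pairs), where the block left the sum at -2.01 (adjusted p = 0.918). Between culture labels, all pairs of libraries of the same line gave 0.254 and 0.575, so that in Mta123KO the number added little beyond the line. The numbers of a genotype share lines, so p-values with the number as a block may be too small. No libraries of a group agreed within counting noise (chi-square per degree of freedom 4.41 to 215). The p-values measure the spread between these libraries, which may in part be technical.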

Additional observations from a re-analysis of the deposited data

Results flagged for a closer look

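The change between culture labels differed between Mta123KO and Control in the test of the difference itself when the replicate number was a block. The difference (Mta123KO minus Control, log2 scale) was -1.72 for summed Zscan4, -2.02 for Zscan4a, -1.96 for Zscan4b, -1.81 for Zscan4c, -1.49 for Zscan4d, -1.74 for Zscan4e and -1.77 for Zscan4f. It was -2.97 for Tcstv3 (edgeR adjusted p = 0.00194), which had 0 to 3 counts in Mta123KO labelled 48 h, and -2.39 for Tcstv1 (edgeR adjusted p = 0.0472), with 0 to 3 counts there. Without the block none of these 9 passed in edgeR, where 13% of 22973 genes were called, and DESeq2 called Tcstv3. The share of all genes called with the block is not given here, so the blocked values have no background beside them. The number names a line within each genotype, and the 4 numbers of a genotype come from 2 lines.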

How the results depend on the processing

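Mta2_KO against Mta2_WT kept all 9 calls under every alternative run, but a joint fit of the single-mutant libraries gave -4.34 for summed Zscan4 (edgeR adjusted p = 0.0516). For Mta3_del/del that fit gave -3.60 and 0 members called, and leaving out libraries gave -4.48 to -2.47 and 0 to 8 members called. For Mta1_del/del leaving out libraries gave -4.93 to 1.01. In Mta123KO against Control labelled 2iL the sum was -0.19 with the replicate block, 1.03 for line 1 alone, -1.59 for line 2 alone and -0.53 to 0.81 with libraries left out. Members called there were 1 with the block, 0 with the libraries of a line summed, 9 for line 2 alone and 0 to 2 with libraries left out. Labelled 48 h the sum was -1.74 without the filter, -1.84 with spike-in scaling, -3.23 for line 2 alone and -2.31 to -0.94 with libraries left out. Members called were 5 with DESeq2, 5 without the filter, 0 with the replicate block and 6 with spike-in scaling. They were 9 for line 2 alone and 0 to 7 with libraries left out. The number of members tested and the share of all genes called can differ between fits and are not given for these alternatives. Counts of members called, here and below, therefore show only how far the calls depend on the settings.

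Between labels in Control the sum was -1.53 in a joint fit and -1.53 with the libraries of a line summed, each with 1 member called, and -1.74 to -1.44 with 1 to 9 called when libraries were left out. In Mta123KO summed lines gave -3.49 and 0 members, DESeq2 called 10, and leaving out libraries gave -3.66 to -3.25 and 0 to 6 called. The difference between genotypes was -1.72 with the replicate block, with 8 members called, and DESeq2 called 1. Spike-in scaling moved the median of all genes to 0.18 between labels in Control and -0.22 in the difference. Fits of single Mta123KO lines, of single mutants without 1 library and of sums with Zscan4-ps1 to Zscan4-ps3 were chosen after seeing the data. Causes were not tested, except that summing lines or leaving out libraries leaves fewer samples. Of 641 values of single members under the other alternatives, 512 kept direction and call, 88 lost the call, 21 gained it and 20 changed sign, none of them called. In Mta123KO against Control labelled 2iL the replicate block gave -0.36 for Zscan4b, -0.09 for Zscan4c, -0.11 for Zscan4d and -0.23 for Zscan4e. Leaving out libraries there gave -1.10 to 0.19 for Zscan4a, -0.70 to 0.60 for Zscan4b, -0.44 to 0.86 for Zscan4c, -0.55 to 0.92 for Zscan4d, -0.57 to 0.70 for Zscan4e, -0.29 to 1.07 for Zscan4f, -1.68 to 0.04 for Tcstv3 and -1.56 to 0.85 for Tdpoz4. In the difference between genotypes Zfp352 was -0.16 with spike-in scaling and -0.34 to 0.27 with libraries left out. Counts of 0 to 3 in Tcstv1, Tcstv3 and Tdpoz4 limit what depth can show in Mta123KO labelled 48 h.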
